A study of Mus musculus with 9 samples.

Results

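The transcripts followed here belong to 28 genes of cholesterol synthesis, sensing and intracellular handling in the mouse macrophage-like cell line RAW264.7. They were picked by gene name, and all 28 had 1 row each among the 20627 rows of the deposited gene count table. By role, 8 encode the mevalonate and prenyl steps, 12 the sterol steps, 4 the sensors of membrane sterol and 4 proteins that move or store cholesterol. None of the 28 is a lipoprotein receptor, so the last group covers handling of sterol inside the cell and not its entry. All 28 passed the filter on low counts, with 92 to 8602 counts per library.

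Polyadenylated RNA was sequenced from 3 groups of 3 libraries. HG-SIG cells received 35 mmol/l glucose together with sitagliptin phosphate for 6 h, HG cells received 35 mmol/l glucose for 6 h, and NC is the control, for which the labels state neither a glucose concentration nor a time. Sitagliptin blocks dipeptidyl peptidase 4 and is prescribed for type 2 diabetes; its concentration is not given in the labels. All libraries come from a single cell line and carry the same batch number, and the labels do not say whether replicates came from different dishes, so p-values measure the spread among these libraries. No group had sitagliptin without added glucose or an osmotic control, so an effect of glucose itself and of raised osmolarity cannot be told apart.

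Cells build cholesterol from acetyl-CoA. Condensation and phosphorylation steps make mevalonate and then the prenyl unit isopentenyl pyrophosphate, prenyl units are joined to farnesyl pyrophosphate and squalene, and a series of ring closure, demethylation and reduction steps ends in cholesterol. The transcription factor SREBP2, encoded by Srebf2, sits in the endoplasmic reticulum bound to the escort protein SCAP. When the membrane there is rich in sterol, the INSIG proteins hold SCAP back; when it is poor, SCAP carries SREBP2 to the Golgi, where it is cut and released to the nucleus and switches on most genes of the pathway. Macrophages also take up much cholesterol by phagocytosis, export it from lysosomes with NPC1 and NPC2 and store it as ester made by SOAT1.

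Library totals ranged from 23285821 to 31571578 counts, and 3 counts corresponded to 0.0894 to 0.132 CPM, the count relative to library size after TMM scaling. All 8 macrophage markers examined were present, and all 8 fell in HG-SIG against HG and against NC. In HG against NC 5 fell and 1 rose. Cd14 was at 759 CPM in HG, against 1567 CPM in NC, while Csf1r was at 2380 CPM in HG, against 1989 CPM in NC. Lyz2 was at 6105 CPM in HG and 6283.5 CPM in NC, and Adgre1 at 48.9 and 48.3 CPM. The summed level of the 8 markers was 5194 to 5297 CPM in HG-SIG, against 9989 to 10756 CPM in HG and 11096 to 11562 CPM in NC. The markers of T and B lymphocytes, epithelium and fibroblasts that were in the table (3 of 6, 3 of 5 and 3 of 5) each summed to at most 0.201 CPM per library. These changes of the macrophage markers accompanied the differences described below in each comparison, and their part in them was not tested. In bulk RNA, fewer cells of a kind and less RNA per cell cannot be told apart. HG replicate 3 stood apart from HG replicates 1 and 2, with 8.94 and 8.18 chi-square units per gene against 3.46 between the other two.

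Most genes of the pathway were lower with sitagliptin under high glucose. In HG-SIG against HG, 20 of 28 members fell, 4 rose and 4 did not pass the test at an adjusted p of 0.05. Among all 13311 genes tested, 52.5% passed in this comparison, 26.8% lower and 25.7% higher. The median log2 fold change was -0.32 over the members and 0.0085 over all genes tested. The 3 HG-SIG libraries lay apart from the 3 HG libraries, without overlap, for 23 of 28 members and for 58.7% of all genes.

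High glucose without the drug had the reverse sign for most members. In HG against NC, 17 of 28 rose, 2 fell and 9 did not pass, while 14.3% of all genes rose and 15.2% fell (29.5% called in all). The median was 0.30 over the members and 0.0033 over all genes, and libraries did not overlap for 20 members and for 41.7% of all genes. Both comparisons use the same 3 HG libraries, so a deviation of those libraries would push them in opposite directions. HG-SIG against NC does not use them: there 8 members rose, 12 fell and 8 did not pass, against 29.9% and 28.7% of all genes (58.6% called), with a median of -0.09 over the members and 0.022 over all genes. Libraries did not overlap for 20 members and for 65.9% of genes in that comparison. The changes were small. Called changes of more than 1 on the log2 scale, the size the series used as its criterion, numbered 0 among the members in each comparison, against 5.30% of genes in HG-SIG against HG, 2.85% in HG against NC and 8.51% in HG-SIG against NC.

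The split of the members depended on the scaling wherever HG-SIG was compared. Scaled by library size alone, the median of all genes moved to 0.17 in HG-SIG against HG and 0.21 in HG-SIG against NC. The members' medians were then -0.16 and 0.10, again below those of all genes. On that scale 15 members fell and 5 rose in HG-SIG against HG, and 6 fell and 13 rose in HG-SIG against NC. Of the 13311 genes tested, 1826 fell and 6093 rose in HG-SIG against HG, and 2120 fell and 6786 rose in HG-SIG against NC. With limma on log2(TPM + 1), 14 members fell and 7 rose in HG-SIG against HG. Of the 12109 genes tested with limma, 1467 fell and 6624 rose. HG against NC was little touched, with 18 members rising and 1 falling under both settings. All genes then split into 2480 rising and 1732 falling by library size alone, and 2374 and 1640 with limma. Without HG replicate 3, the library that stood apart, 21 members fell and 4 rose in HG-SIG against HG, and 2 fell and 17 rose in HG against NC. Of the 13520 genes tested then, 3590 fell and 3557 rose in HG-SIG against HG. In HG against NC 2129 of them fell and 1871 rose.

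**Figure D1:**
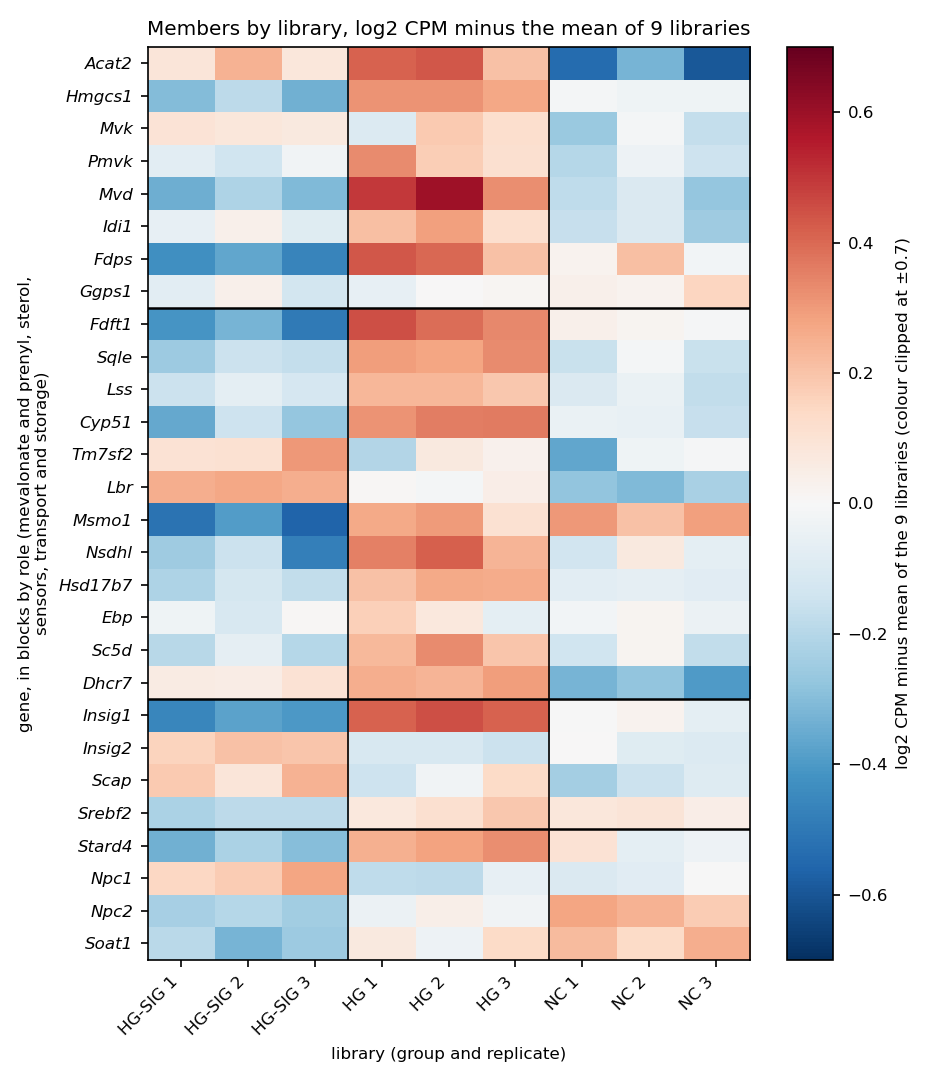
Each row is a member and each column a library, ordered HG-SIG, HG and NC; colour gives log2 CPM minus the mean of the gene over the 9 libraries, and black lines part the role groups and the treatment groups. The middle HG block is high for most synthesis genes, while Lbr, Insig2, Scap and Npc1 are highest in HG-SIG and Npc2 and Soat1 in NC.

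**Figure D2:**
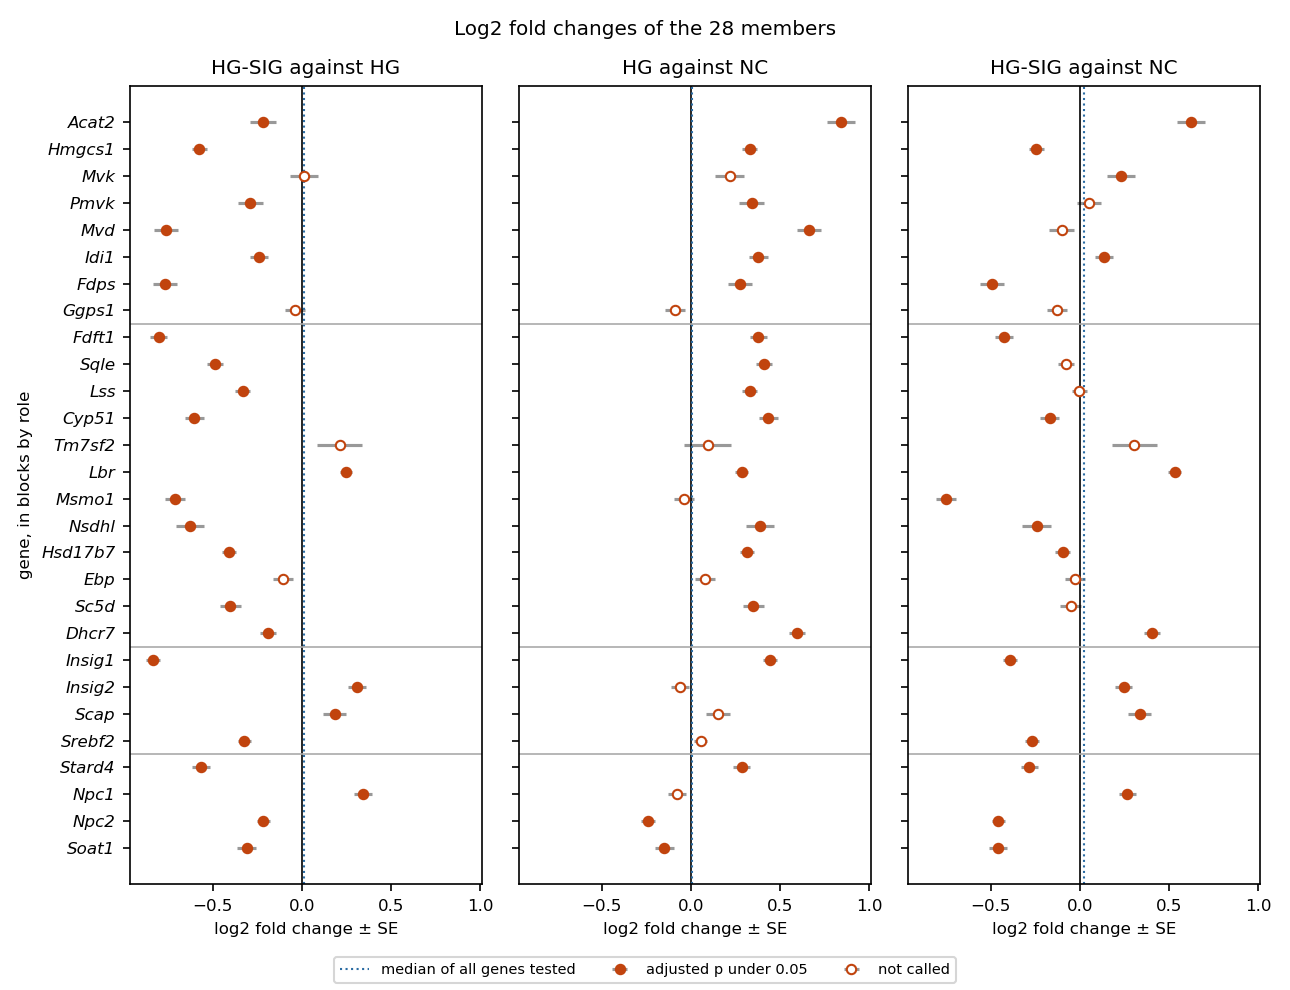
Points are log2 fold changes with their standard errors from the edgeR fit, filled where the adjusted p was under 0.05, and the dotted line is the median of all genes tested. In HG-SIG against HG 20 points are called below 0 and 4 above it, and in HG against NC 2 below and 17 above. In HG-SIG against NC 12 are below and 8 above. By library size alone the last split was 6 below and 13 above, against 2120 and 6786 of all 13311 genes tested.

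The bases before the transcription starts of the members were searched for letters that such genes are known to use. RefSeq promoter windows of build GRCm38.p6 (the assembly of mm10), 250 bases before to 50 after a start, were at hand for 23 of the 28 members (29 windows). Fdps, Fdft1, Sqle, Stard4 and Npc1 had none. The sterol regulatory element, bound by SREBP proteins, was searched as TCACNCCAC, the box of the co-acting factor NF-Y as CCAAT, the Sp1 box as GGGCGG and the E-box as CACGTG, all on both strands, and matches of different motifs overlapped in 0 cases. The NF-Y box occurred in 21 of 23 members, against 43.6% of the 9428 tested genes with a window. By window it was in 21 of 29 member windows, against 37.4% of all 32851 windows. The Sp1 box was also in 21 of 23 members, against 68.5% of tested genes, and in 24 of 29 member windows, against 35.7%. An exact sterol element was in 1 member, Hmgcs1, against 1.4% of tested genes, and in 1 of 29 member windows, against 1.24%. An E-box was in 5 of 23 members, against 11.9% of tested genes, and in 6 of 29 member windows, against 7.15%. A match is a description of letters in a window and not evidence of binding, and a missing one says only that these letters are absent there.

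**Figure D3:**
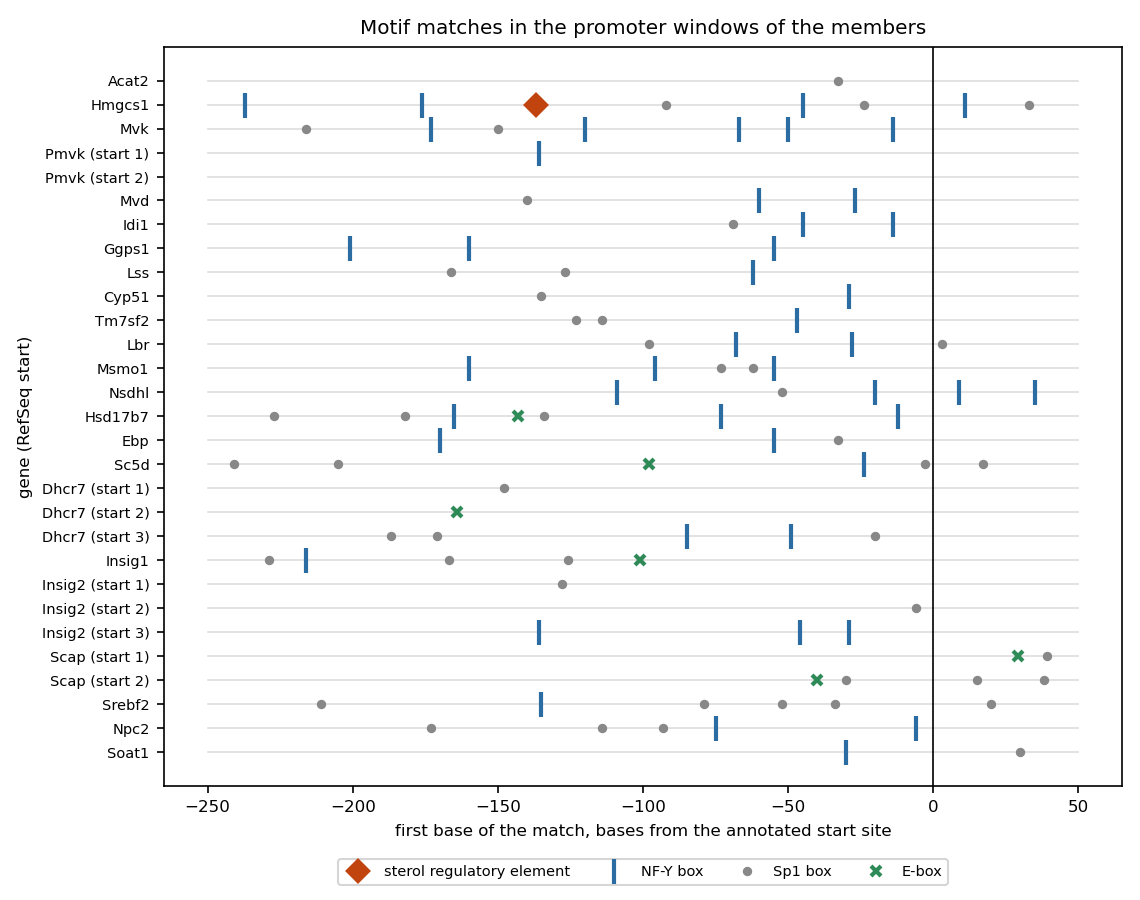
Each line is a promoter window of a member and the horizontal axis gives the first base of a match in bases from the annotated start site. NF-Y boxes occur in 21 of the 23 members, among them Lbr and Insig2, which rose in HG-SIG against HG. The members without one are Scap, which rose as well, and Acat2, which fell. The only sterol element match is in Hmgcs1.

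The bases before the start are shown for 5 members, 5′ to 3′ on the strand of the gene, with the sterol element and NF-Y boxes in capitals; each stretch stops before any GENCODE M21 exon of the gene in the window, or else at the RefSeq start. Hmgcs1 (chr13:119690101-119690350, + strand) carries the sterol element. Mvd (chr8:122443423-122443672, - strand) fell strongly in HG-SIG against HG, and Lbr (chr1:181842402-181842651, - strand) is the sterol-step gene that rose. Insig1 (chr5:28071162-28071362, + strand) and Insig2 (chr1:121332590-121332839, - strand, the outermost of its 3 annotated starts) are the paralogous sensors, which moved in opposite directions.
Hmgcs1: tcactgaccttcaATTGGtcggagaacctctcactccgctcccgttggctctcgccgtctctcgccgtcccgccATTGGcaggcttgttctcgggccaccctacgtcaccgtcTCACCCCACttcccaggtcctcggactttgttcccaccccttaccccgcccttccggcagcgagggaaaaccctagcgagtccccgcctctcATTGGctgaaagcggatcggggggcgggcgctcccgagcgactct
Mvd: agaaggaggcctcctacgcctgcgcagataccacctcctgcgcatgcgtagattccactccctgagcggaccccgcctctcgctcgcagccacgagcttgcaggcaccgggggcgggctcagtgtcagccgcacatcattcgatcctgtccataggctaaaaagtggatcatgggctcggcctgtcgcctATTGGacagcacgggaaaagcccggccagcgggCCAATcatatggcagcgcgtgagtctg
Lbr: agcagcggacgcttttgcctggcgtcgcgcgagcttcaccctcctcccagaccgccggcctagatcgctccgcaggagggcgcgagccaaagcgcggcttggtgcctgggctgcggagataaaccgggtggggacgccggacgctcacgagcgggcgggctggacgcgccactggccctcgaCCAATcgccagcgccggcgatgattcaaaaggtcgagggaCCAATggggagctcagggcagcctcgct
Insig1: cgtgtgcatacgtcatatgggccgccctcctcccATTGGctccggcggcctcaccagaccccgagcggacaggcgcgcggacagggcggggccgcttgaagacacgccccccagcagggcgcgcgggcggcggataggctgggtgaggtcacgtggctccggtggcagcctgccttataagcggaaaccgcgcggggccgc
Insig2: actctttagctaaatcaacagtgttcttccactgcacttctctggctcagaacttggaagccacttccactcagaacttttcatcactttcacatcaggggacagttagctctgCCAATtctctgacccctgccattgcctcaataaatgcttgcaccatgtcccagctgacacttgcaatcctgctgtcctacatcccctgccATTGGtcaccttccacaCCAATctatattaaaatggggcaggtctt

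NF-Y boxes stood before genes that fell and before genes that rose with the drug: 2 boxes before Mvd, 2 before Lbr, 1 before Insig1 and 3 before the outermost start of Insig2. The other 2 windows of Insig2 held 0, and so did both windows of Scap, which also rose with the drug. The window of Acat2, which fell with the drug, held 0 as well. Npc1, another gene that rose, had no window. Hmgcs1 had 3 boxes before its start and 1 after it. The sterol element of Hmgcs1 began at position -137 from the start.

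Most mevalonate and prenyl genes were higher in HG than in NC and lower in HG-SIG than in HG. Of the 8 genes 6 fell, 0 rose and 2 did not pass in HG-SIG against HG (median log2 fold change -0.27). In HG against NC 6 rose, 0 fell and 2 did not pass (median 0.33), and in HG-SIG against NC 3 rose, 2 fell and 3 did not pass (median -0.03). All genes tested rose in 25.7% and fell in 26.8% of cases in HG-SIG against HG, and in 14.3% and 15.2% in HG against NC. For HG-SIG against NC 62.5% of the 8 genes were called, near the 58.6% of all genes (29.9% higher, 28.7% lower). The summed level of the 8 genes was 507 ± 20.7 CPM in HG-SIG, against 716 ± 42.7 CPM in HG and 561 ± 31.7 CPM in NC (SD, n = 3 each).

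Acat2 encodes the cytosolic thiolase that opens the pathway by joining acetyl units. It had 52.6, 58.8 and 52.5 CPM in the HG-SIG libraries, against 66.1, 67.2 and 57.3 CPM in HG and 34.2, 39.7 and 33.0 CPM in NC. All HG-SIG and HG libraries lay above all NC libraries. Its rise in HG against NC was the largest of any member, 0.84 ± 0.08 on the log2 scale (SE, adjusted p = 3.7e-06), and most of it was still there in HG-SIG against NC, 0.62 ± 0.08 on the log2 scale (SE, adjusted p = 1.7e-05). The difference between HG-SIG and HG, -0.22 ± 0.07 on the log2 scale (SE, adjusted p = 0.0247), came with overlapping libraries. It was not called without HG-SIG replicate 1 or 3 or HG replicate 1 or 2 (adjusted p 0.0849 to 0.0965), nor by library size alone (-0.06, adjusted p = 0.509).

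Hmgcs1, the synthase that makes HMG-CoA, and whose promoter holds the sterol element above, had 72.7, 78.8 and 70.9 CPM in the HG-SIG libraries, against 112, 112 and 108 CPM in HG and 88.6, 87.7 and 87.6 CPM in NC. The HG libraries were the highest and the HG-SIG libraries the lowest, without overlap. The log2 fold change was -0.58 in HG-SIG against HG and 0.33 in HG against NC. HG-SIG was also below NC, -0.25 ± 0.04 on the log2 scale (SE, adjusted p = 2.4e-04); by library size alone that difference was -0.06 and not called (adjusted p = 0.225).

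Mvd decarboxylates the mevalonate chain to isopentenyl pyrophosphate. Its level was 27.6, 30.1 and 28.3 CPM in the HG-SIG libraries, against 49.3, 52.8 and 43.9 CPM in HG and 31.0, 32.6 and 29.0 CPM in NC. HG stood above both other groups, which overlapped each other. It rose in HG against NC, 0.66 ± 0.07 on the log2 scale (SE, adjusted p = 1.0e-05), and fell in HG-SIG against HG, -0.76 ± 0.07 on the log2 scale (SE, adjusted p = 1.3e-06). In HG-SIG against NC it did not pass (-0.10, adjusted p = 0.221).

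Fdps, which joins prenyl units into farnesyl pyrophosphate, was the highest member per exon length on average over the 9 libraries. It had 165, 172 and 160.5 CPM in the HG-SIG libraries, against 299, 292 and 255 CPM in HG and 225, 256 and 218 CPM in NC. HG-SIG lay below every other library, while the HG and NC libraries overlapped, NC replicate 2 being above HG replicate 3. It fell in HG-SIG against HG, -0.77 ± 0.07 on the log2 scale (SE, adjusted p = 1.2e-06), and in HG-SIG against NC (-0.49), and rose in HG against NC (0.28, adjusted p = 0.00731).

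Pmvk, Idi1, Mvk and Ggps1 complete the mevalonate and prenyl genes. The phosphomevalonate kinase Pmvk had 19.7 to 21.4 CPM in HG-SIG, 23.5 to 27.4 CPM in HG and 18.9 to 21.2 CPM in NC. The isomerase Idi1 had 116 to 126 CPM in HG-SIG, 133 to 149.7 CPM in HG and 103 to 115 CPM in NC. Both fell in HG-SIG against HG (-0.29 and -0.24) and rose in HG against NC (0.34 and 0.38). By library size alone neither fall was called (-0.13 and -0.08, adjusted p = 0.126 and 0.169). Idi1 in HG-SIG stayed above NC, 0.13 ± 0.05 on the log2 scale (SE, adjusted p = 0.0414); this call was lost with RLE size factors (adjusted p = 0.0611) and without HG-SIG replicate 1 or 2, HG replicate 1 or NC replicate 1 or 3 (0.0509 to 0.175). Mevalonate kinase Mvk had 16.7 to 17.1 CPM in HG-SIG, 15.0 to 18.1 CPM in HG and 13.3 to 15.8 CPM in NC. Its log2 fold change was not called in HG-SIG against HG or in HG against NC. The values were 0.01 in HG-SIG against HG and 0.22 in HG against NC (adjusted p = 0.914 and 0.0638). By library size alone, with limma on log2(TPM + 1) and with a replicate block, HG was called above NC (adjusted p 0.0296 to 0.0337). With limma Mvk was also called higher in HG-SIG than in HG (0.21, adjusted p = 0.0294). It rose in HG-SIG against NC (0.23, adjusted p = 0.0259), a call lost without HG-SIG replicate 1 or 2 or NC replicate 1 or 3 (0.0583 to 0.116), and the higher level in HG than in NC was called without HG replicate 1 (0.30, adjusted p = 0.0159) or NC replicate 2 (0.28, 0.0312). Ggps1 makes geranylgeranyl pyrophosphate, the anchor of prenylated proteins, and leaves the route to cholesterol. Its level was 25.7 to 28.8 CPM in HG-SIG, 26.9 to 28.4 CPM in HG and 28.6 to 31.1 CPM in NC, and it passed in none of the 3 comparisons (adjusted p = 0.579, 0.276 and 0.0653); without HG-SIG replicate 2 it was called lower in HG-SIG than in NC (-0.18, adjusted p = 0.0249).

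The sterol steps were mostly lower in HG-SIG than in HG and mostly higher in HG than in NC. Of the 12 genes 9 fell, 1 rose and 2 did not pass in HG-SIG against HG (median -0.41), and in HG against NC 9 rose, 0 fell and 3 did not pass (median 0.34). In HG-SIG against NC 2 rose, 5 fell and 5 did not pass (median -0.07). Of all genes tested, 25.7% rose and 26.8% fell in HG-SIG against HG, and 14.3% and 15.2% in HG against NC. For HG-SIG against NC 58.3% of the 12 genes were called, about the 58.6% of all genes (29.9% higher, 28.7% lower). Summed over the 12 genes, the level was 806 ± 21.6 CPM in HG-SIG, against 990.4 ± 10.2 CPM in HG and 809 ± 11.0 CPM in NC (SD, n = 3 each).

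Fdft1, squalene synthase, commits farnesyl pyrophosphate to sterols. It had 29.9, 31.9 and 28.3 CPM in the HG-SIG libraries, against 54.4, 52.3 and 50.4 CPM in HG and 40.9, 40.4 and 39.7 CPM in NC. The 3 groups did not overlap, with HG-SIG lowest and HG highest. Fdft1 fell in HG-SIG against HG, -0.80 ± 0.05 on the log2 scale (SE, adjusted p = 4.7e-08), and in HG-SIG against NC (-0.43), and rose in HG against NC (0.38). The exons of Fdft1 overlap those of the abundant protease gene Ctsb on the other strand over 18.3% of their length, and whether reads were counted by strand is not stated. Ctsb averaged 886 CPM in HG-SIG, 1268 CPM in HG and 1512 CPM in NC; it fell in HG-SIG against HG (-0.52) and in HG-SIG against NC (-0.77), where Fdft1 fell too, and in HG against NC (-0.25), where Fdft1 rose. The part of shared reads in the values of Fdft1 was not tested.

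Sqle, the epoxidase that prepares squalene for ring closure, had 111, 119.7 and 118 CPM in the HG-SIG libraries, against 163, 161 and 167 CPM in HG and 119, 131 and 119 CPM in NC. Every HG library exceeded every library of the other groups, and those overlapped. Sqle fell in HG-SIG against HG, -0.49 ± 0.05 on the log2 scale (SE, adjusted p = 2.0e-06), and rose in HG against NC, 0.41 ± 0.05 on the log2 scale (SE, adjusted p = 2.0e-05). The next enzyme, lanosterol synthase Lss, had 61.6 to 65.0 CPM in HG-SIG, 77.9 to 80.4 CPM in HG and 60.5 to 66.2 CPM in NC. Its log2 fold changes in these comparisons were -0.33 and 0.33.

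Cyp51 removes a methyl group from lanosterol. It was at 68.5, 79.3 and 72.7 CPM in the HG-SIG libraries, against 109, 113 and 113 CPM in HG and 85.0, 84.6 and 78.7 CPM in NC. HG was highest, and HG-SIG replicate 2 lay just above NC replicate 3. The log2 fold change was -0.60 in HG-SIG against HG and 0.43 in HG against NC. Between HG-SIG and NC it was -0.17 (adjusted p = 0.013), which was not called without HG-SIG replicate 1 or NC replicate 1 (adjusted p = 0.0689 and 0.0534) and was 0.02 by library size alone.

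Lbr and Tm7sf2 encode the paired reductases that act after Cyp51; Lbr is also the receptor of the inner nuclear membrane that tethers heterochromatin. Lbr had 249, 252 and 249 CPM in the HG-SIG libraries, against 209.5, 207 and 215 CPM in HG and 172, 168 and 178 CPM in NC. Here HG-SIG was highest and NC lowest, without overlap, so that Lbr was the one sterol-step gene to rise in HG-SIG against HG. It differed by 0.25 ± 0.03 on the log2 scale (SE, adjusted p = 7.3e-05) between HG-SIG and HG and by 0.53 ± 0.03 on the log2 scale (SE, adjusted p = 4.6e-08) between HG-SIG and NC. Tm7sf2 was scarce, at 4.26, 4.27 and 4.89 CPM in the HG-SIG libraries, against 3.44, 4.16 and 4.04 CPM in HG and 3.09, 3.88 and 3.94 CPM in NC. Its HG-SIG libraries lay above the others, and HG and NC overlapped. It passed in none of the comparisons (0.21 in HG-SIG against HG, 0.09 in HG against NC and 0.30 in HG-SIG against NC, adjusted p = 0.185, 0.646 and 0.0557). By library size alone it was called higher in HG-SIG than in HG (0.37, adjusted p = 0.0232) and than in NC (0.49, 0.00385), and without HG replicate 1 it was called higher in HG-SIG than in NC (0.30, 0.0497). Per exon length Lbr averaged 44.3 CPM per kilobase over the 9 libraries and Tm7sf2 0.908.

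Msmo1, Nsdhl and Hsd17b7 form the complex that strips the remaining methyl groups. Msmo1, its oxidase, had 75.0, 81.7 and 72.8 CPM in the HG-SIG libraries, against 129, 132 and 116 CPM in HG and 132, 124 and 131 CPM in NC. HG and NC overlapped, and HG-SIG lay far below both. It differed from its partners in HG against NC, where its log2 value was -0.04 (adjusted p = 0.638), while Nsdhl rose by 0.39 and Hsd17b7 by 0.31; the difference between the genes was not tested. All 3 fell in HG-SIG against HG, Msmo1 by -0.71 ± 0.06 on the log2 scale (SE, adjusted p = 4.5e-07), with Nsdhl at -0.63 and Hsd17b7 at -0.41. Msmo1 also had the lowest log2 fold change of any member in HG-SIG against NC, -0.75 ± 0.06 on the log2 scale (SE, adjusted p = 1.5e-07). Nsdhl had 23.5 to 29.5 CPM in HG-SIG, 38.7 to 43.8 CPM in HG and 29.9 to 34.3 CPM in NC. Hsd17b7 had 40.0 to 42.7 CPM in HG-SIG, 53.5 to 55.7 CPM in HG and 43.9 to 44.5 CPM in NC. With TMM scaling both were called lower in HG-SIG than in NC, by small amounts (-0.24 and -0.10, adjusted p = 0.0203 and 0.0499). The call of Nsdhl was lost without HG-SIG replicate 3 or NC replicate 2 (0.0916 and 0.0901), and by library size alone the value was -0.05 (0.564). That of Hsd17b7 was lost without any one of HG-SIG replicates 1 and 3, HG replicates 1 and 2 and NC replicates 1, 2 and 3 (0.0511 to 0.183), and with DESeq2 (0.0866). Its sign turned by library size alone (0.09, adjusted p = 0.0553) and with limma on log2(TPM + 1), where it was called higher in HG-SIG than in NC (0.13, adjusted p = 0.0122).

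Ebp, Sc5d and Dhcr7 carry out the last changes to the ring. The isomerase Ebp was at 39.9 to 43.3 CPM in HG-SIG, 41.1 to 48.3 CPM in HG and 41.9 to 43.7 CPM in NC, and passed in none of the comparisons (adjusted p = 0.126, 0.342 and 0.666); without HG replicate 3 the lower level in HG-SIG than in HG was called (-0.16, adjusted p = 0.0137). The desaturase Sc5d had 42.7 to 46.8 CPM in HG-SIG, 55.9 to 61.5 CPM in HG and 43.4 to 49.6 CPM in NC, and fell in HG-SIG against HG (-0.40) and rose in HG against NC (0.35). Dhcr7, the closing reductase, had 38.1, 38.0 and 39.3 CPM in the HG-SIG libraries, against 43.7, 43.2 and 44.9 CPM in HG and 29.3, 30.2 and 27.8 CPM in NC. HG was highest and NC lowest, without overlap. It rose in HG against NC, 0.59 ± 0.04 on the log2 scale (SE, adjusted p = 5.5e-07). The level in HG-SIG was lower than in HG (-0.19, adjusted p = 0.00234) and still above NC, 0.40 ± 0.04 on the log2 scale (SE, adjusted p = 5.4e-06). By library size alone HG-SIG and HG differed by -0.03 (adjusted p = 0.588) and with limma on log2(TPM + 1) by 0.01 (0.829).

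The sensors did not share one direction where HG-SIG was compared. Of the 4 genes 2 rose and 2 fell in HG-SIG against HG, and 2 rose and 2 fell in HG-SIG against NC (medians -0.07 and -0.01). In HG against NC 1 rose and 3 did not pass (median 0.10). All genes tested split about evenly too: 25.7% rose and 26.8% fell in HG-SIG against HG, and 29.9% and 28.7% in HG-SIG against NC. Insig1 and Insig2 both hold SCAP in the endoplasmic reticulum. Insig1 is itself a target of SREBP proteins, so its transcript is often read as a gauge of their activity, whereas Insig2 is not known for that response.

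Insig1 had 49.0, 51.9 and 50.9 CPM in the HG-SIG libraries, against 89.6, 91.8 and 89.3 CPM in HG and 67.1, 68.5 and 64.1 CPM in NC. The 3 groups were fully apart, HG highest and HG-SIG lowest. Its fall was the lowest log2 fold change of any member in HG-SIG against HG, -0.84 ± 0.04 on the log2 scale (SE, adjusted p = 3.7e-09). It rose in HG against NC, 0.44 ± 0.04 on the log2 scale (SE, adjusted p = 2.5e-06). HG-SIG lay below NC as well, -0.39 ± 0.04 on the log2 scale (SE, adjusted p = 2.6e-06).

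Insig2 went the other way, with 25.6, 26.6 and 26.3 CPM in the HG-SIG libraries, against 21.3, 21.3 and 20.8 CPM in HG and 23.0, 21.7 and 21.5 CPM in NC. All HG-SIG libraries were above all others. It rose in HG-SIG against HG, 0.31 ± 0.05 on the log2 scale (SE, adjusted p = 2.2e-04), and in HG-SIG against NC (0.24), and did not pass in HG against NC (-0.06, adjusted p = 0.384) although those libraries did not overlap. Per exon length Insig1 averaged 22.3 CPM per kilobase and Insig2 6.66 over the 9 libraries.

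Scap, the escort, had 88.0, 82.2 and 91.7 CPM in the HG-SIG libraries, against 70.1, 76.1 and 85.0 CPM in HG and 65.5, 69.7 and 72.7 CPM in NC. HG-SIG was above NC without overlap, and HG lay between with a wide spread. It rose in HG-SIG against NC, 0.33 ± 0.07 on the log2 scale (SE, adjusted p = 7.7e-04). The call in HG-SIG against HG, 0.18 ± 0.07 on the log2 scale (SE, adjusted p = 0.0323), was lost without HG-SIG replicate 1 or 3 or HG replicate 1 or 2 (0.0813 to 0.152). In HG against NC Scap did not pass with all libraries (0.15, adjusted p = 0.112) and was called higher without HG replicate 1 (0.22, 0.0284).

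Srebf2, the gene of SREBP2, had 186, 191 and 191 CPM in the HG-SIG libraries, against 228, 235 and 248 CPM in HG and 229, 231 and 224 CPM in NC. HG-SIG lay below both other groups, which overlapped. Srebf2 fell in HG-SIG against HG, -0.32 ± 0.04 on the log2 scale (SE, adjusted p = 1.5e-05), and in HG-SIG against NC (-0.27, but -0.08 and not called by library size alone, adjusted p = 0.0857). In HG against NC, where 15 of the 20 synthesis genes rose, Srebf2 itself was at 0.05 on the log2 scale (adjusted p = 0.318). RNA does not show how much SREBP2 protein was cut and active.

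**Figure D4:**
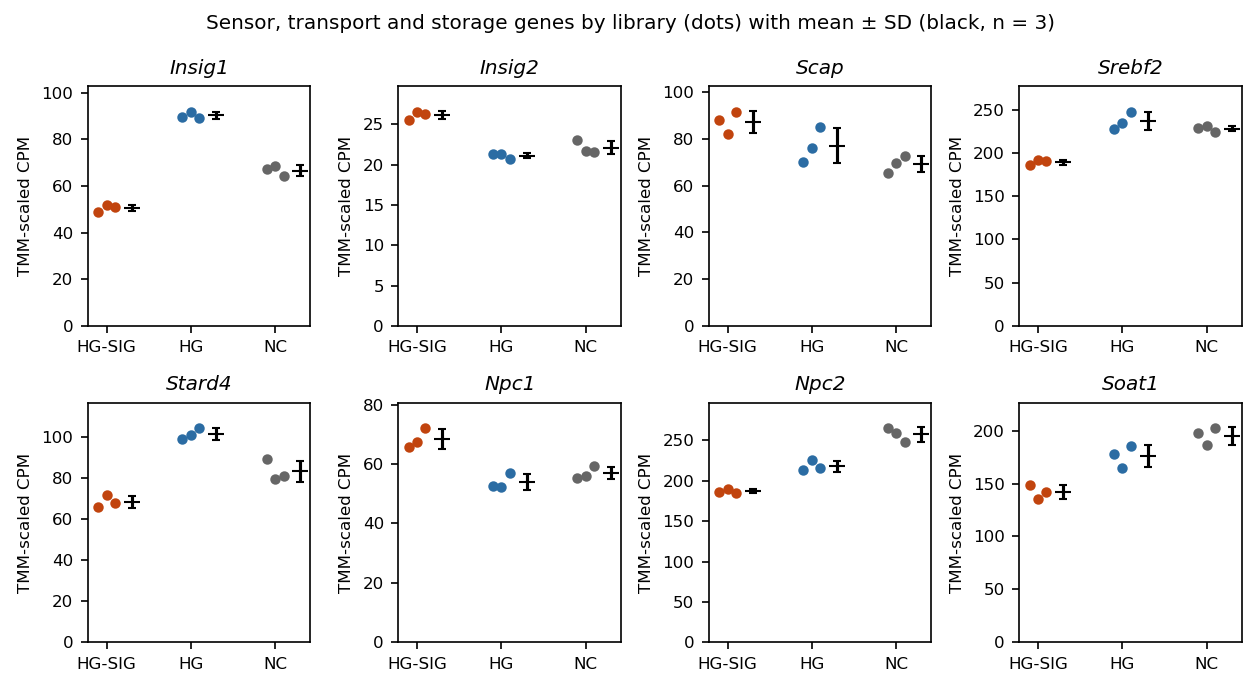
Dots are TMM-scaled CPM in each library and black marks the mean ± SD (n = 3) for the 4 sensors (upper row) and the 4 transport and storage genes (lower row). Insig1, Srebf2 and Stard4 are lowest in HG-SIG, Insig2, Scap and Npc1 highest there, and Npc2 and Soat1 highest in NC.

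The 4 transport and storage genes did not share one course. In HG-SIG against HG 3 fell and 1 rose, in HG against NC 1 rose, 2 fell and 1 did not pass, and in HG-SIG against NC 3 fell and 1 rose (medians -0.26, -0.11 and -0.37). In the same order 26.8%, 15.2% and 28.7% of all genes tested fell and 25.7%, 14.3% and 29.9% rose. Their summed level was 466 ± 1.60 CPM in HG-SIG, against 549 ± 11.6 CPM in HG and 593 ± 13.2 CPM in NC (SD, n = 3 each).

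Stard4, a soluble carrier of sterol between membranes and a target of SREBP proteins, moved with the synthesis genes. It had 66.0, 71.4 and 67.6 CPM in the HG-SIG libraries, against 98.7, 101 and 104 CPM in HG and 89.0, 79.4 and 81.1 CPM in NC. The 3 groups were apart, HG highest and HG-SIG lowest. HG-SIG differed from HG by -0.57 ± 0.05 on the log2 scale (SE, adjusted p = 1.0e-06), and HG from NC by 0.28. Between HG-SIG and NC it was -0.28, and -0.09 by library size alone (adjusted p = 0.11).

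Npc1 and Npc2 act one after the other in the lysosome: soluble NPC2 takes up free cholesterol and hands it to NPC1 in the membrane. Npc1 had 65.8, 67.2 and 72.0 CPM in the HG-SIG libraries, against 52.5, 52.2 and 57.1 CPM in HG and 55.3, 56.1 and 59.3 CPM in NC. HG-SIG was above all other libraries. It rose in HG-SIG against HG, 0.34 ± 0.05 on the log2 scale (SE, adjusted p = 9.2e-05), and in HG-SIG against NC (0.26), and did not pass in HG against NC (-0.08, adjusted p = 0.276).

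Npc2 had 187, 190.5 and 185 CPM in the HG-SIG libraries, against 213, 225 and 216 CPM in HG and 265, 259.6 and 248 CPM in NC. Each group lay apart, in the order HG-SIG, HG, NC from low to high, so Npc2 was lower with glucose and lower again with the drug. It fell in HG-SIG against NC, -0.46 ± 0.04 on the log2 scale (SE, adjusted p = 4.1e-07), and in HG against NC (-0.24). The difference between HG-SIG and HG, -0.22, was not called by library size alone (-0.06, adjusted p = 0.201).

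Soat1, which esterifies cholesterol for storage in lipid droplets, had 149, 135 and 142 CPM in the HG-SIG libraries, against 178, 165 and 186 CPM in HG and 197, 186 and 202 CPM in NC. The order was that of Npc2, again without overlap. Soat1 fell in HG-SIG against HG, -0.31 ± 0.05 on the log2 scale (SE, adjusted p = 2.6e-04), and in HG-SIG against NC, -0.46 ± 0.05 on the log2 scale (SE, adjusted p = 6.3e-06). With limma on log2(TPM + 1) the fall in HG-SIG against HG was not called (-0.10, adjusted p = 0.145). The call in HG against NC (-0.15, adjusted p = 0.0428) was lost without HG-SIG replicate 3, HG replicate 1 or 2 or NC replicate 1 or 3 (0.0568 to 0.174) and by library size alone (adjusted p = 0.111).

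Per exon length the members spanned a wide range. Over the 9 libraries Fdps was highest at 54.0 CPM per kilobase, followed by Lbr at 44.3, Npc2 at 40.6 and Idi1 at 35.3. The lowest after Tm7sf2 were Npc1 at 5.28 CPM per kilobase, Ggps1 at 5.96 and Mvk at 6.00. The order depends on the exon length assigned to each gene, here the union of all annotated exons. For Fdps that union is 4208 bases, 1124 of them shared with a second gene, while its longest coding transcript has 1382. A shorter length would raise Fdps, so its place below Lbr in HG-SIG may turn. Other lengths were not tested. Lbr was the highest member in HG-SIG and Fdps in HG and NC; in NC, Npc2 at 47.4 CPM per kilobase also lay above Lbr. Fdps averaged 39.4 ± 1.36 CPM per kilobase and Lbr 52.4 ± 0.380 in HG-SIG, against 67.1 ± 5.65 and 44.2 ± 0.876 in HG and 55.4 ± 4.84 and 36.3 ± 1.09 in NC (SD, n = 3 each).

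**Figure D5:**
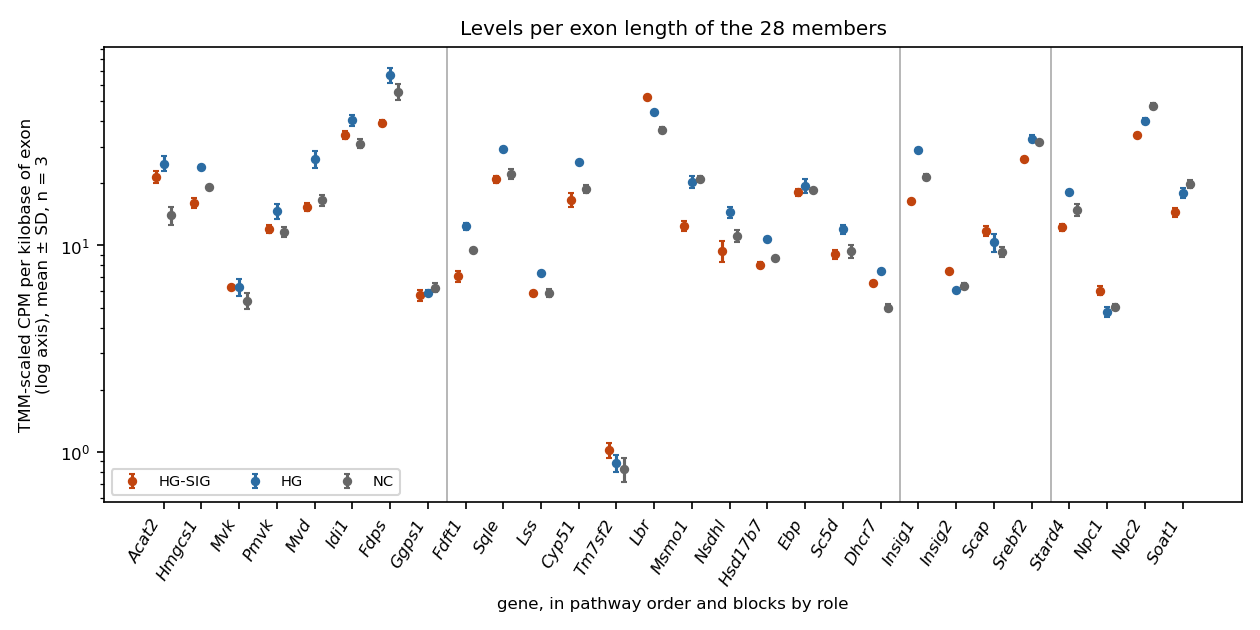
Points are group means of TMM-scaled CPM per kilobase of exon with SD (n = 3) on a log axis, genes in pathway order. HG points top most synthesis genes, Lbr tops in HG-SIG, and Tm7sf2 lies below all others at 0.908 CPM per kilobase on average.

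Neighbouring genes of the pathway that are not among the 28 were counted in 3 lists, to be read against the 52.5% of all genes called in HG-SIG against HG, 29.5% in HG against NC and 58.6% in HG-SIG against NC. Of 9 tested genes for SREBP processing and sterol-regulated protein turnover, 7 rose and 1 fell in HG-SIG against HG, 4 rose and 2 fell in HG against NC, and 4 rose and 1 fell in HG-SIG against NC. The membrane scaffold gene Erlin1 rose in HG-SIG against NC (0.41) and in HG against NC (0.20). Erlin2, its partner, rose in HG-SIG against HG (0.25) and fell in HG against NC (-0.16). Srebf1, the gene of SREBP1, fell in HG-SIG against HG (-0.27, adjusted p = 4.6e-05).

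Of 12 genes of the prenyl branch, which feed dolichol, ubiquinone and protein prenylation, 5 rose and 3 fell in HG-SIG against HG, 1 rose and 0 fell in HG against NC, and 7 rose and 4 fell in HG-SIG against NC. Nus1, a subunit of the dolichol-making prenyltransferase, fell in HG-SIG against HG (-0.36 ± 0.04) and Icmt, which methylates prenylated proteins, rose (0.28 ± 0.04). The median of this list was 0.12 in HG-SIG against HG and 0.0081 in HG against NC.

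Of 13 tested genes for other sterol transport, storage and oxidation, 3 rose and 4 fell in HG-SIG against HG, 2 rose and 3 fell in HG against NC, and 5 rose and 5 fell in HG-SIG against NC. The called share of this list in HG-SIG against HG was about that of all genes. Lipa, the lysosomal acid lipase that frees cholesterol from lipoprotein ester, averaged 369 CPM in HG-SIG, 511 CPM in HG and 309 CPM in NC. It fell in HG-SIG against HG (-0.47 ± 0.04) and rose in HG against NC (0.73 ± 0.04). Stard3, a sterol carrier of late endosomes, fell in HG-SIG against HG (-0.26) and in HG against NC (-0.19). Osbpl9 fell in HG-SIG against HG (-0.34) and Gramd1b in HG against NC (-0.34). Nceh1, a hydrolase of stored cholesterol ester, rose in HG-SIG against HG (0.41 ± 0.05). Soat2, the scarce paralog of Soat1, averaged 0.900 CPM in HG-SIG, 0.898 CPM in HG and 2.74 CPM in NC, and fell in HG against NC (-1.61 ± 0.21, adjusted p = 6.8e-05).

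Some members may share reads with other loci. For 4 members more than 10% of the exonic bases also belonged to a second counted gene: Hmgcs1 and Fdps with loci at no more than 0.156 CPM on average in any group, Fdft1 with Ctsb, and Tm7sf2 with Vps51, which had 35.3 CPM in HG-SIG, 40.1 CPM in HG and 38.3 CPM in NC. A stretch of 200 bases or more at 95% identity or higher existed elsewhere for 5 members: Acat2 (Acat3 and Tcp1), Idi1, Fdps, Ggps1 and Fdft1, the last 4 with processed pseudogenes. Acat3 was at 0.848 CPM in HG-SIG, 0.792 CPM in HG and 0.922 CPM in NC, and Tcp1 at 608, 673 and 687 CPM in the same order. Tcp1 fell in HG-SIG against HG (-0.15) and did not pass in HG against NC (-0.03, adjusted p = 0.615). Without these 7 members, 4 rose and 15 fell of 21 in HG-SIG against HG, 12 rose and 2 fell in HG against NC, and 6 rose and 9 fell in HG-SIG against NC. In the same order 25.7%, 14.3% and 29.9% of all genes tested rose and 26.8%, 15.2% and 28.7% fell.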

How the data were processed

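Bulk RNA-seq counts per gene were analysed for 9 libraries of RAW264.7 cells, 3 per group. The deposited table holds whole-number read counts; the submitters' processing notes name Bowtie2 2.3.5, RSEM and mm10, and no label or header gives the counting options or strand. Rows without an Ensembl gene ID, 5.85 to 6.21% of counts, were kept. Counts were filtered (filterByExpr, 13311 genes kept), scaled by TMM and tested with edgeR 4.0.16 (R 4.3.3; quasi-likelihood F-test, all 9 libraries in 1 fit, no covariate), with Benjamini-Hochberg adjustment over all genes tested and a call at an adjusted p under 0.05. The fit was tested on simulated data. Levels are TMM-scaled CPM, and CPM per kilobase use the union of exons in GENCODE M21. Overlapping exons and near-identical copies were sought there and with BLAST 2.17.0. Motif searches used Python 3.11.15. Alternatives used DESeq2 1.42.0 and limma 3.58.1, the latter on log2(TPM + 1) with TPM computed here. Values in every library are given for up to 3 members per role and comparison with the lowest p and for 2 paralog pairs; the others are given by range. The members and lists were chosen with earlier results of these data known. Totals of 23285821 to 31571578 counts set the precision.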

Additional observations from a re-analysis of the deposited data

How the results depend on the processing

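Scaling was the choice that mattered most. By library size alone 76.9% of called genes were higher in HG-SIG against HG and 76.2% in HG-SIG against NC, against 48.9% and 51% with TMM; in HG against NC the shares were 58.9% and 48.4%. With limma on log2(TPM + 1) they were 81.9%, 80.2% and 59.1%. In HG-SIG against NC, 13 members then rose and 6 fell by library size alone, and 15 rose and 6 fell with limma on log2(TPM + 1), against 8 and 12. Among all genes tested 6786 of 13311 rose and 2120 fell by library size alone, and 7095 of 12109 rose and 1757 fell with limma. In HG-SIG against HG, 7 members rose and 14 fell with limma, against 4 and 20. In HG against NC, 1 member fell by library size alone, with limma and with only the 2 groups compared, and 1 to 2 fell when a library was left out. DESeq2 called 4 members higher and 20 lower in HG-SIG against HG, 17 and 2 in HG against NC and 6 and 11 in HG-SIG against NC. Of all 13311 genes it called 2898 higher and 3427 lower in HG-SIG against HG. The numbers for all genes were 1579 and 1882 in HG against NC, and 3403 and 3751 in HG-SIG against NC.

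Signs turned as follows, with the value by library size alone and then with limma. In HG-SIG against HG, Ggps1 was 0.12 and 0.16, Ebp 0.054 and 0.10, and Dhcr7 0.013 with limma alone. In HG-SIG against NC, Mvd was 0.087 and 0.13, Ggps1 0.062 and 0.10, Sqle 0.11 and 0.15, Lss 0.18 and 0.22, Cyp51 0.019 and 0.063, Hsd17b7 0.092 and 0.13, Ebp 0.16 and 0.20, and Sc5d 0.14 and 0.18. With 1 library left out, Tm7sf2 ranged from -0.017 to 0.18 and Msmo1 from -0.076 to 0.011 in HG against NC, Mvk from -0.070 to 0.071 in HG-SIG against HG, and Lss from -0.039 to 0.024, Ebp from -0.056 to 0.0019 and Sc5d from -0.098 to 0.0044 in HG-SIG against NC. Of these, Lss, Ebp and Sc5d in HG-SIG against NC were called higher under both settings, and Ggps1 in HG-SIG against HG and Sqle and Hsd17b7 in HG-SIG against NC with limma alone. The limma setting changed the unit, the test and the genes tested at once, and the cause of these turns was not tested. Of the values per member and setting, 1404 kept their sign and side of the threshold, 59 lost a call and 21 gained one with the sign kept, and 28 turned sign, some of which lost or gained a call as well.

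The replicate numbers are not stated to mark shared cultures. Same-numbered libraries correlated between -0.0027 and 0.0988 in their deviations from the group means, and these values were mostly positive. Differently numbered libraries correlated between -0.0768 and 0.0408, mostly negative. The main fit used no replicate term, and whether same-numbered libraries shared a culture was not tested. With a replicate block, 4 members rose and 20 fell in HG-SIG against HG, 19 and 2 in HG against NC, and 9 and 12 in HG-SIG against NC. More genes were called with the block in each comparison. In HG against NC 2291 of all genes rose and 2372 fell with it, against 1899 and 2028 in the main fit. In HG-SIG against HG 3715 rose and 3848 fell with the block, against 3417 and 3572. For HG-SIG against NC the numbers were 4228 and 4054, against 3978 and 3823. Intervals from 3 libraries per group limit what could be seen for Tm7sf2, with 92 to 164 counts.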
